A study of Rattus norvegicus with 14 samples.

Results

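The genes described here encode subunits of the mitochondrial respiratory chain and enzymes of the citric acid cycle in rat thoracic aorta. A list of 44 genes was taken by symbol: 18 of complex I, 4 of complex II, 8 of complex III with cytochrome c, 7 of complex IV and 7 of the citric acid cycle. On the array, 39 of them were measured by 46 probe sets annotated with that symbol alone, among 14217 genes named in this way, and the probe set with the highest mean over 14 arrays represented a gene. The measured members were 17 of complex I, 4 of complex II, 6 of complex III, 6 of complex IV and 6 of the citric acid cycle. Ndufa10, Uqcrb, Cycs, Cox7a2 and Fh were not analysed here. Thoracic aortas of Sprague-Dawley rats labelled A-CRF, in which adenine had caused chronic renal failure (8 arrays), were compared with those labelled Control (6 arrays). The sources used here do not state the dose and duration of adenine or the age, sex and diet of the animals. No label states that the samples came from separate animals, and each p-value measures only the spread among these samples, part of which may be technical.

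Complex I takes electrons from NADH and complex II takes them from succinate, so complex II belongs to both the respiratory chain and the citric acid cycle. The electrons pass through complex III and cytochrome c to complex IV, which reduces oxygen to water, and the protons moved on the way drive ATP synthase. Smooth muscle is the main cell type of the aortic wall, and the fat around the thoracic aorta of rodents resembles brown fat, which is very rich in mitochondria. The signal of these genes in a piece of aorta is therefore a sum over vessel wall and any attached fat. In such bulk tissue, fewer cells of a type and less RNA per cell cannot be told apart.

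Promoter sequences are shown for 4 members because nuclear genes of the respiratory chain are known targets of a few shared factors: NRF1, ETS factors such as GABP, ERR receptors, YY1 and Sp1. The RefSeq table of build GRCr8 held a promoter window of 300 bases, from 250 before to 50 after the annotated start, for 33 of the 39 members. The letters searched on both strands were GCGCANGCG (NRF1 core), CCGGAAG (ETS), AAGGTCA (ERR site), GCCATNTTG (YY1) and GGGCGG (Sp1). Matches of different motifs were counted separately and could share bases. In the 4 sequences below, written 5′ to 3′ on the strand of the gene, capitals mark the matches. Ndufs7 and Idh2 are shown as the members that passed the test described below, and Sdha and Uqcrc2 as members with repeated NRF1 and ETS matches.
Ndufs7, chr7:10110449-10110748, minus strand, 1 YY1 match: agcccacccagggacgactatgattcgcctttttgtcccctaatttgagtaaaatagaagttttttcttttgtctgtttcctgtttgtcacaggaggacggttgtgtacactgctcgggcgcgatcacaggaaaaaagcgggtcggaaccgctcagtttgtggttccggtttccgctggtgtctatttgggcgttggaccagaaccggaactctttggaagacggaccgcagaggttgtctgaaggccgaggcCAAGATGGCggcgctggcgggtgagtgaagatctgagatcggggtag
Idh2, chr1:143467199-143467498, minus strand, 3 Sp1 matches: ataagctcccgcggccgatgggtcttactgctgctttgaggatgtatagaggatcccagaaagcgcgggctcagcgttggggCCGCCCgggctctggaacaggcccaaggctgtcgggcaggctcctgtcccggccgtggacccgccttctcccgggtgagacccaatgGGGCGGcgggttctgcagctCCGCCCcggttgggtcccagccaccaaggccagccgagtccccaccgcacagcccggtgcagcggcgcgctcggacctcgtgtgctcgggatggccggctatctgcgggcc
Sdha, chr1:30764303-30764602, plus strand, 3 NRF1 matches: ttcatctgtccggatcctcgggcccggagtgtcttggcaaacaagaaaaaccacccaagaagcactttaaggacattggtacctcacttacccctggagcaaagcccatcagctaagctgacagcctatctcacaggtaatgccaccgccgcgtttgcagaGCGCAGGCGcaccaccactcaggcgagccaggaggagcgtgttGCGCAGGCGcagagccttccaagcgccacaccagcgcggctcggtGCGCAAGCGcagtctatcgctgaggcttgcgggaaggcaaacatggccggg
Uqcrc2, chr1:184598990-184599289, plus strand, 2 ETS matches: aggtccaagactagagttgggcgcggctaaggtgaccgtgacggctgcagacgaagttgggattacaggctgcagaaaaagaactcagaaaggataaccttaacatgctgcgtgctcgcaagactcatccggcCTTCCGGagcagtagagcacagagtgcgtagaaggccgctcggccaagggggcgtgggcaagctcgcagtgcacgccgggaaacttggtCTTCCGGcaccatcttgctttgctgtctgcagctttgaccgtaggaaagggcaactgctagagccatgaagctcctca

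The ETS letters were found in 10 of 33 member promoters (30.3%) against 9.2% of all 27456 promoters in the table, and the YY1 letters in 8 (24.2%) against 3.1%. The NRF1 core was present in 5 (15.2%) against 6.3% and the ERR site in 3 (9.1%) against 4.4%. The Sp1 letters were present in 13 (39.4%) against 34.9% of all promoters, but in 46.2% of the promoters of the 17291 genes with a name, so the order depended on the set used for comparison. For the other motifs, the shares among promoters of genes with a name were 12.1% for ETS, 3.7% for YY1, 8.8% for the NRF1 core and 3.5% for the ERR site. The median GC content was 58.3% in the member promoters, 52.3% in all promoters and 56.7% in those of genes with a name. The promoters compared were not matched for it. NRF1 or ETS matches were found in 15 members and both in 0. None of the 5 motifs was found in Ndufa4, Ndufa9, Ndufb3, Ndufb6, Ndufb8, Ndufs4, Ndufv1 and Ndufv2. A match is a description of these letters and no sign that a factor binds.

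All 39 measured members had a lower mean in A-CRF than in Control, with changes between -0.51 and -0.02 on the log2 scale and a median of -0.22, a change of -14.4%. Only 2 members passed the test, limma with Benjamini-Hochberg adjustment over all 31042 probe sets at 0.05: Ndufs7, a core subunit of complex I, and Idh2, the mitochondrial NADP-dependent isocitrate dehydrogenase. The other 37 did not pass. Over all probe sets tested, 52.7% (16348 of 31042) had a change below 0 and the median change was -0.0020. The test called 2.05% of all probe sets in either direction and 0.789% as lower, against 2 of 39 members (5.13%). At an unadjusted p under 0.05, 7.23% of all probe sets were lower, against 25 of 39 members (64.1%). Among probe sets with a mean at least 1 log2 unit above the lowest value, 1.53% were called lower. At an unadjusted p under 0.05, 11.9% of these were lower. The members share arrays and vary together, so their number does not count as independent evidence. The log base of the values was inferred, as the processing account states, and each log2 change holds for base 2.

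**Figure D1:**
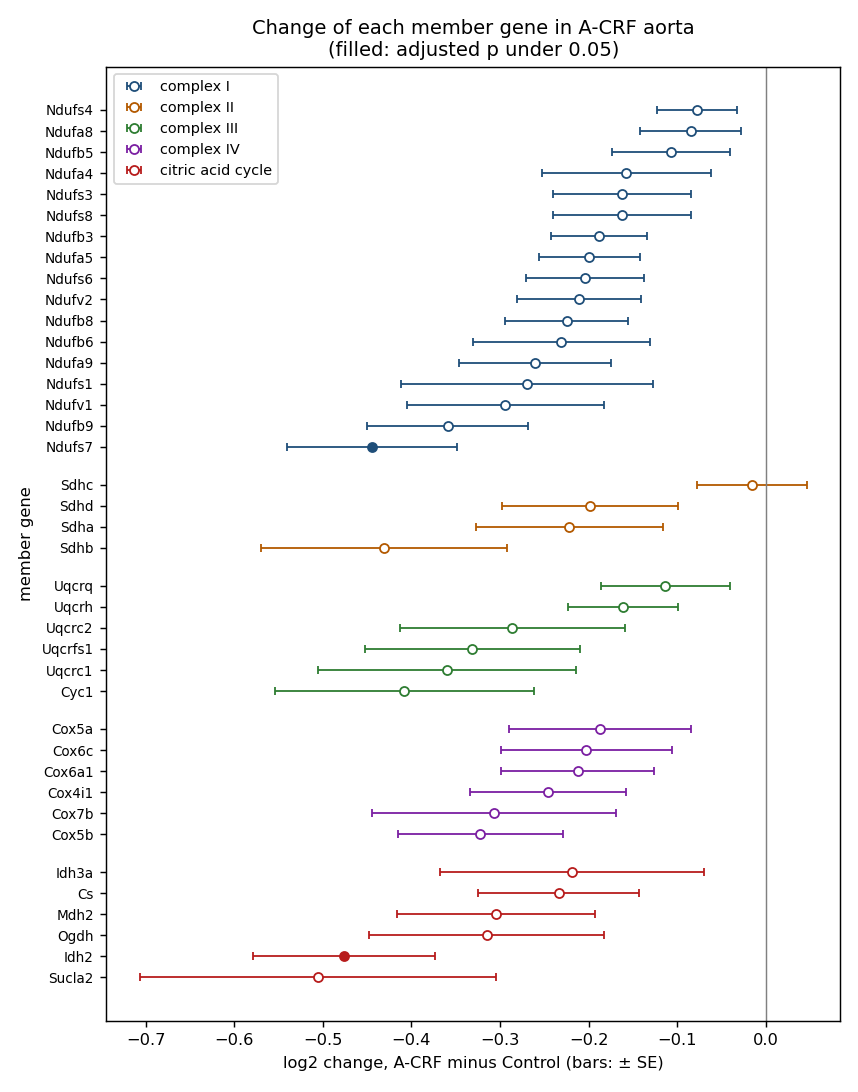
Each point is the log2 change of 1 member gene, A-CRF minus Control (horizontal axis), with bars of ± 1 SE from limma, grouped by complex I, II, III (with cytochrome c), IV and citric acid cycle. All 39 points lie below 0, the 2 filled points (Ndufs7 and Idh2) have an adjusted p under 0.05, and Sdhc lies closest to 0 at -0.02.

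Among the 17 complex I members the median change was -0.20, 1 passed the test and 10 had an unadjusted p under 0.05. Ndufs7 carries an iron-sulfur cluster on the path of electrons to ubiquinone. Its log2 signal lay between 8.32 and 8.68 with a median of 8.41 in Control, and between 7.76 and 8.43 with a median of 8.02 in A-CRF. Every A-CRF array except A-CRF 1 (8.43) lay below the lowest Control array. Ndufs7 fell by 0.44 on the log2 scale (SE 0.10; limma adjusted p = 0.031), from a mean of 8.47 ± 0.14 (SD, n = 6) to 8.02 ± 0.22 (SD, n = 8), a change of -26.5%.

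The remaining complex I subunits did not pass. Ndufb9, an accessory subunit of the membrane arm, came closest with -0.36 ± 0.09 (SE; limma adjusted p = 0.058), and 7 of 8 A-CRF arrays lay below the lowest Control array. The accessory subunits Ndufa5 and Ndufb3 followed with -0.20 (adjusted p = 0.089) and -0.19 (adjusted p = 0.094). The NADH-binding subunit Ndufv1 had -0.29 and its partner Ndufv2 had -0.21. Of the iron-sulfur and core subunits of the peripheral arm, Ndufs1 had -0.27, while Ndufs3 and Ndufs8 each had -0.16. Among the accessory subunits, Ndufa9 had -0.26, Ndufb6 -0.23, Ndufb8 -0.22, Ndufs6 -0.20 and Ndufb5 -0.11. Ndufa8 had -0.08, and Ndufs4, also an accessory subunit, had -0.08 with an adjusted p of 0.49. Ndufa4, listed here with complex I after its older naming and now assigned to complex IV, had -0.16. The order of these changes carries no test, and most neighbours lie within each other's standard error.

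Complex II has only 4 subunits, all on the array, with a median change of -0.21, and none passed. The iron-sulfur subunit Sdhb had the largest difference, -0.43 ± 0.14 (SE; limma adjusted p = 0.13). Its log2 signal ranged from 8.69 to 9.61 with a median of 9.02 in Control and from 8.26 to 9.02 with a median of 8.64 in A-CRF. The groups overlapped, with 5 of 8 A-CRF arrays below the lowest Control array. The flavoprotein Sdha, which oxidises succinate, had -0.22 (adjusted p = 0.36), and the membrane anchor Sdhd -0.20 (adjusted p = 0.39). The other membrane anchor, Sdhc, had the smallest difference of all members, -0.02 ± 0.06 (SE; limma adjusted p = 0.97). Its Control signal lay between 9.40 and 9.82 with a median of 9.68, and its A-CRF signal between 9.51 and 9.77 with a median of 9.66. All A-CRF arrays lay within the Control range of Sdhc, and its sign turned under several settings, given in the closing section. Whether Sdhc and Sdhb differ in their change was not tested.

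The 6 complex III members had a median change of -0.31, and none passed although 5 had an unadjusted p under 0.05. Cyc1, the cytochrome c1 subunit that hands electrons to cytochrome c, had the largest difference, -0.41 ± 0.15 (SE; limma adjusted p = 0.18). Its signal lay between 8.37 and 9.05 with a median of 8.53 in Control and between 7.89 and 8.81 with a median of 8.16 in A-CRF. A-CRF 1 was higher than 5 of the 6 Control arrays, and 6 A-CRF arrays lay below all of them. The core proteins Uqcrc1 and Uqcrc2 had -0.36 (adjusted p = 0.25) and -0.29 (adjusted p = 0.31), and the Rieske iron-sulfur protein Uqcrfs1 -0.33 (adjusted p = 0.19). The small subunits had less negative values, -0.16 for the hinge protein Uqcrh and -0.11 ± 0.07 (SE) for Uqcrq.

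The 6 complex IV members had changes between -0.32 and -0.19 with a median of -0.23, and none passed. Cox5b, a subunit encoded in the nucleus as all members are, had the largest difference, -0.32 ± 0.09 (SE; limma adjusted p = 0.094). Its signal was 9.24 to 9.65 with a median of 9.40 in Control and 8.87 to 9.50 with a median of 9.10 in A-CRF. Again A-CRF 1 was the only A-CRF array not below the lowest Control array. Cox7b had -0.31, and Cox4i1, the ubiquitous form of subunit 4, had -0.25 (adjusted p = 0.18). Cox6a1 and Cox6c had -0.21 and -0.20. Cox5a had -0.19 ± 0.10 (SE), from a probe set whose mean of 5.89 lay near the low end of the array's range. The catalytic subunits of complex IV are encoded in mitochondrial DNA, and 0 of the 13 protein-coding genes of mitochondrial DNA were measured by a named probe set.

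The 6 citric acid cycle members had a median change of -0.31, and 1 passed. Idh2 makes NADPH in the matrix as it oxidises isocitrate. Its log2 signal lay between 9.11 and 9.50 with a median of 9.28 in Control, and between 8.46 and 9.11 with a median of 8.86 in A-CRF. Idh2 was the only member (2.56%) whose groups did not overlap. Every A-CRF array lay below every Control array for 0.438% of all probe sets. The share was 0.825% among probe sets with a mean at least 1 log2 unit above the lowest value. The gap of Idh2 was narrow: 9.108 for the highest A-CRF array and 9.111 for the lowest Control array. Idh2 fell by 0.48 on the log2 scale (SE 0.10; limma adjusted p = 0.031), from 9.29 ± 0.14 (SD, n = 6) to 8.82 ± 0.24 (SD, n = 8), a change of -28.1%.

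Sucla2, the ATP-forming subunit of succinyl-CoA ligase, had the most negative change of all members, -0.51 ± 0.20 (SE; limma adjusted p = 0.24), and the widest SE. Its signal ran from 7.64 to 8.81 with a median of 8.05 in Control and from 7.16 to 8.17 with a median of 7.54 in A-CRF. The groups overlapped, and 4 of 8 A-CRF arrays lay below the lowest Control array. Ogdh, part of the oxoglutarate dehydrogenase complex, had -0.32 (adjusted p = 0.28), and the malate dehydrogenase Mdh2 -0.30 (adjusted p = 0.20). Citrate synthase, Cs, a common proxy for mitochondrial content, had -0.23 (adjusted p = 0.23). Idh3a, the catalytic subunit of the NAD-dependent isocitrate dehydrogenase, had -0.22 ± 0.15 (SE; limma adjusted p = 0.59).

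**Figure D2:**
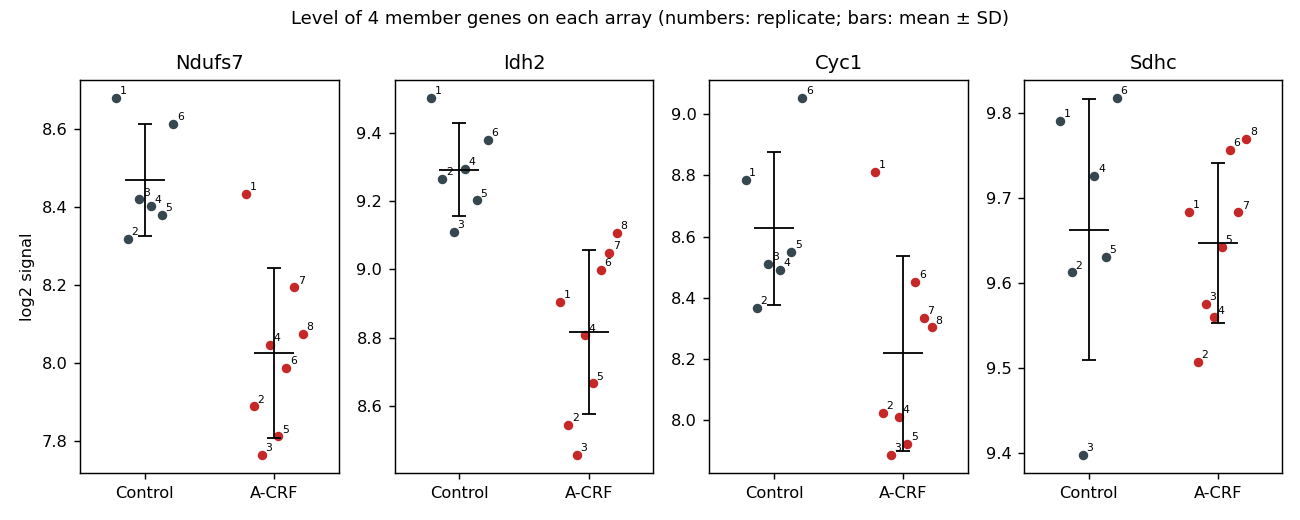
Log2 signal (vertical axis) of Ndufs7, Idh2, Cyc1 and Sdhc on each Control and A-CRF array, with the replicate number beside each point and bars for mean ± SD. In Ndufs7 and Cyc1, A-CRF 1 lies inside the Control range while most A-CRF arrays lie below it; in Idh2 no A-CRF array reaches the Control arrays, and in Sdhc the groups overlap.

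For 5 members, other probe sets of the same gene exist, and none of these 7 passed. The second probe set of Sdhd had -0.19, those of Cs had -0.29, -0.14 and -0.01, and those of Uqcrc2 and Ndufa9 had -0.07 and -0.04. The dimmer probe set of Sucla2, with a mean of 5.48, had 0.01 (adjusted p = 0.88), so the sign of Sucla2 rests on its brighter probe set.

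Arrays of the same group differed widely in the level of the members. The mean log2 signal of the 39 members on Control 1 to 6 was 8.86, 8.57, 8.67, 8.70, 8.68 and 9.03. On A-CRF 1 to 8 it was 8.80, 8.42, 8.33, 8.35, 8.35, 8.61, 8.57 and 8.60. A-CRF 2 to 5 were the lowest arrays, A-CRF 6 to 8 lay beside the lowest Control array, and A-CRF 1 lay among the highest. Of the 39 members, 38 lay below the lowest Control array on A-CRF 3, 37 on A-CRF 5, 35 on A-CRF 4 and 27 on A-CRF 2. The same count was 18 on A-CRF 7, 11 on A-CRF 8, 10 on A-CRF 6 and 3 on A-CRF 1. The share of all probe sets below the lowest Control array is not given here for any array. These counts are therefore a description only. Control 6 was the highest of all 14 arrays for 29 members, Control 1 for 8 and A-CRF 1 for 2.

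**Figure D3:**
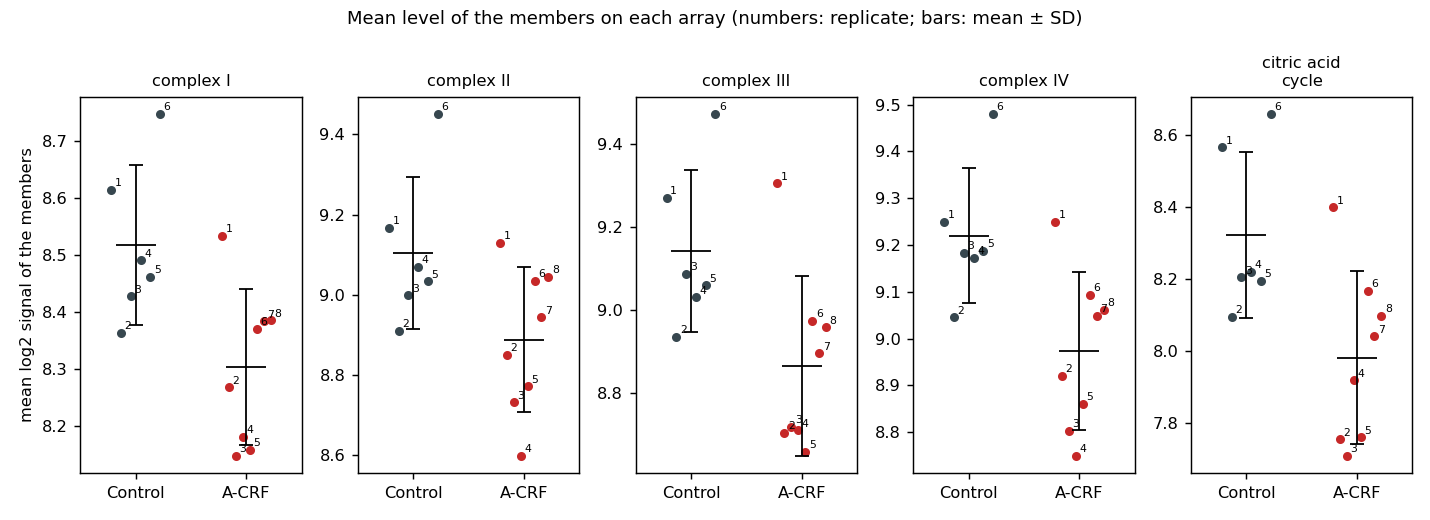
Mean log2 signal of the members of each group of genes (vertical axis) on each Control and A-CRF array, with the replicate number beside each point and bars for mean ± SD. Control 6 is highest in all 5 panels, A-CRF 1 lies within the Control range in all 5, and A-CRF 2 to 5 lie below every Control array in all 5.

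Leaving out single arrays changed which members passed. Without A-CRF 1, 7 members passed, with Ndufa5, Ndufb9, Cox5b, Cyc1 and Uqcrc1 in addition. When A-CRF 5 was left out, 0 passed, and likewise for Control 1, Control 4, Control 5 and Control 6 in turn. Leaving out A-CRF 2, A-CRF 3, Control 2 or Control 3 left 1. The highest adjusted p of a member that had passed was then 0.071 for Ndufs7 and 0.069 for Idh2. Each time, at least 38 of 39 changes stayed below 0. Calls over all 31042 probe sets shifted too: 979 passed without A-CRF 1, against 636 with all arrays. Without A-CRF 5 it was 352, and without Control 1, 4, 5 and 6 in turn it was 446, 345, 307 and 365. Without A-CRF 2 and A-CRF 3 it was 545 and 416, and without Control 2 and Control 3 it was 420 and 425. The number of members at an unadjusted p under 0.05 ran from 15 without Control 6 to 34 without A-CRF 1. Over all probe sets this number was 4098 without Control 6 and 4969 without A-CRF 1, against 4477 with all arrays. The members' median change without Control 6 was -0.17. Without Control 6, Ndufs1 moved to -0.17, Ndufs3 to -0.11, Ndufb5 to -0.06, Ndufs4 to -0.05, Ndufa8 to -0.05, Sdha to -0.15, Uqcrq to -0.06, Cox5a to -0.12 and Idh3a to -0.14, each by over 1.5 times. Cox6c moved to -0.13 without A-CRF 4. The difference between the 3' and the 5' control probe sets of GAPDH, which grows as transcripts shorten, was 1.90 log2 units on A-CRF 1, 1.63 on A-CRF 4 and 1.58 on Control 1, and between 0.37 and 0.55 elsewhere. Without these 3 arrays, 38 changes were below 0 and 3 members passed, and Idh2 had an adjusted p of 0.072. Over all probe sets, 898 passed without these 3 arrays. The part of RNA quality in the values of single arrays was not tested.

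Fat markers moved with the members from array to array. The brown adipocyte list had 10 of 12 markers on the array, of which 5 (Elovl3, Dio2, Zic1, Ebf2 and Slc27a2) had a Control mean at most 1 log2 unit above the table's lowest value, 4.82, and are called near the lowest signal here. The mean of the 10 was 6.54, 6.15, 6.29, 6.29, 6.33 and 6.68 on Control 1 to 6. It was 6.70, 5.99, 6.08, 6.03, 6.06, 6.45, 6.19 and 6.31 on A-CRF 1 to 8, so A-CRF 2 to 5 were lowest here too and A-CRF 1 was highest. None of the 10 passed between the groups. Their changes ran from -1.04 to 0.29 with a median of -0.03, and 6 were below 0. Ucp1, the uncoupling protein that defines brown fat, was at 8.75, 6.88, 7.74, 7.70, 7.78 and 9.07 on Control 1 to 6. Ucp1 was at 9.75, 5.31, 5.51, 5.36, 6.15, 8.42, 7.46 and 7.66 on A-CRF 1 to 8. Its change was -1.04 ± 0.68 (SE; limma adjusted p = 0.56), and A-CRF 2 to 5 lay below every Control array. Cidea, a lipid droplet protein of brown fat, had -0.59 ± 0.29 (SE; limma adjusted p = 0.38), and -0.35 without Control 6.

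The white adipocyte list had 9 of 10 markers on the array, with leptin (Lep) near the lowest signal. Their mean was 7.57, 7.41, 7.68, 7.46, 7.53 and 8.06 on Control 1 to 6 and 7.66, 6.96, 7.88, 6.79, 7.01, 7.96, 7.49 and 7.55 on A-CRF 1 to 8. A-CRF 3 differed between the lists: its white markers were above 5 of the 6 Control arrays, its brown markers were below all of them, and its member mean was the lowest of all. Adipoq, the adipokine adiponectin, was at 9.02 on A-CRF 3 and between 7.0 and 8.94 on the other A-CRF arrays, against 8.10 to 8.71 in Control, with a change of -0.21 ± 0.29 (SE; limma adjusted p = 0.85). Its change ran from -0.34 without A-CRF 3 to -0.05 without A-CRF 4. None of the 9 white markers passed, and 8 had a change below 0.

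**Figure D4:**
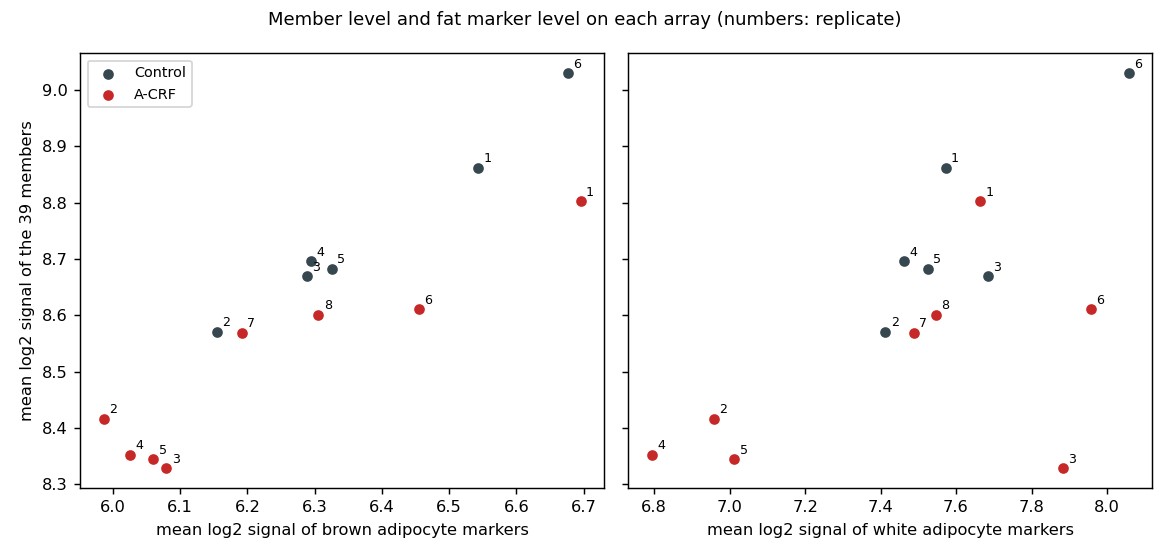
Mean log2 signal of the 39 members (vertical axis) against the mean log2 signal of brown adipocyte markers (left) and white adipocyte markers (right), 1 numbered point per array. A-CRF 2 to 5 are lowest for members and brown markers, and A-CRF 3 stands apart on the right with 7.88 for white markers and the lowest member mean, 8.33.

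Within the groups, many members rose with the brown adipocyte mean. In a limma model with group and brown mean, 25 of 39 members had a positive slope with an adjusted p under 0.05, against 0.815% of all probe sets, and 0 had a negative one. All 39 slopes were above 0, with a median of 0.67 log2 units per log2 unit of the brown mean, against -0.011 over all probe sets. By group, 11 of 17 complex I members passed, 2 of 4 of complex II, 5 of 6 of complex III, 3 of 6 of complex IV and 4 of 6 of the citric acid cycle. The steepest slopes among these were 1.66 for Sucla2 (limma adjusted p = 0.00034), 1.26 for Idh3a (adjusted p = 7.3e-05), 1.24 for Cyc1 (adjusted p = 6.1e-05) and 1.19 for Ndufs1 (adjusted p = 0.00015). Of the members that differed between the groups, Ndufs7 had a slope of 0.67 (adjusted p = 0.049) and Idh2 one of 0.54 ± 0.20 (SE; limma adjusted p = 0.38). The count was 16 without A-CRF 1, 17 without Control 6, 18 without Control 2 and 19 without A-CRF 5. It was 21 to 25 when any other single array was left out. With the white adipocyte mean, 0 of 39 members passed, against 0.242% of all probe sets, though all 39 slopes were above 0 with a median of 0.22. Without A-CRF 3, 9 members passed with the white mean. The shares of all probe sets in these fits without single arrays are not given here.

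With the brown mean in the model, the members' median change between the groups was -0.13 in place of -0.22, and 38 of 39 changes stayed below 0. The exception was Sdhc, at 0.04. Ndufs7 still passed with -0.34 (limma adjusted p = 0.032), Cyc1 now passed with -0.22 (adjusted p = 0.049), and Idh2 had -0.39 (adjusted p = 0.066). An unadjusted p under 0.05 was found for 22 members, against 25 without the brown mean. Over all 31042 probe sets it was found for 3763 with the brown mean and 4477 without it. The group medians were -0.13 for complex I, -0.09 for complex II, -0.15 for complex III, -0.13 for complex IV and -0.17 for the citric acid cycle. Idh3a moved most of the way to 0, from -0.22 to -0.02. With the white mean the median was -0.18, 38 changes were below 0 and 0 passed, with an adjusted p of 0.063 for both Ndufs7 and Idh2. With Ucp1 in place of the brown mean, a choice made after seeing the data, the median was -0.13 and only Ndufs7 passed. Over all 31042 probe sets, 260 passed with the brown mean, 460 with the white mean and 224 with Ucp1, against 636 with group alone. Whether less attached fat accounts for the members' values was not tested by these models, which hold only what the markers measure.

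**Figure D5:**
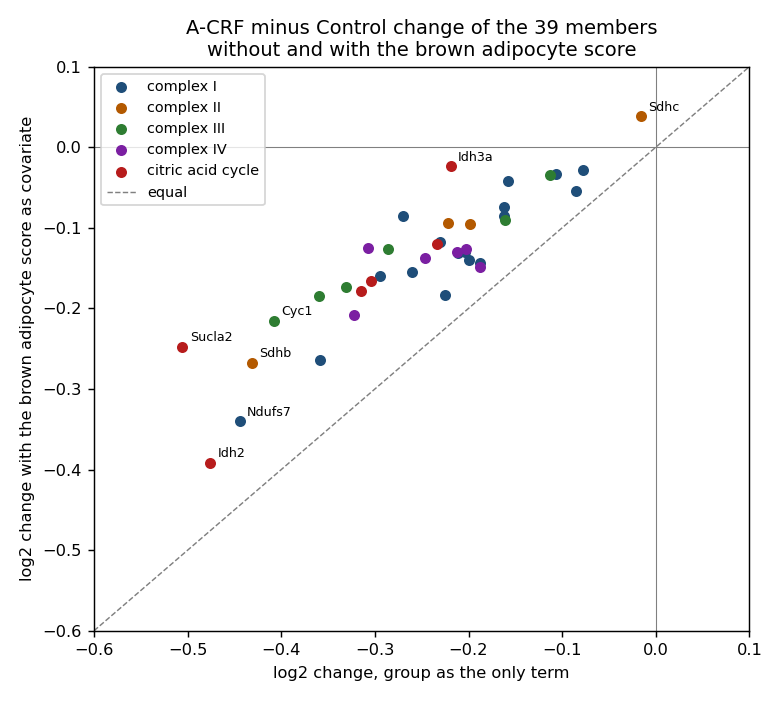
Log2 change of each member, A-CRF minus Control, with group as the only term (horizontal axis) and with the mean of brown adipocyte markers as a covariate (vertical axis); the dashed line marks equal values. Every point lies above the line, so each change is closer to 0 or above it with the covariate, and all but Sdhc remain below 0.

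Markers of other cells were set beside the members. Smooth muscle markers define the tissue, and their mean lay between 9.61 and 10.14 in Control and between 9.32 and 9.70 in A-CRF. All 8 had a change below 0 with a median of -0.25, a size near that of the members, and 1 passed, the smooth muscle myosin Myh11 (-0.29, limma adjusted p = 0.043). With the smooth muscle mean as a covariate, the members' median was -0.21 and 0 passed, with adjusted p-values of 0.17 for Ndufs7 and 0.18 for Idh2, and 13 members had an unadjusted p under 0.05. Over all 31042 probe sets, 195 passed with the smooth muscle mean, against 636 with group alone. An unadjusted p under 0.05 was found for 4863 and 4477 of them. In the smooth muscle mean, 7 of 8 A-CRF arrays lay below every Control array, so group and this mean are hard to tell apart. The members' median SE was 0.116 with the smooth muscle mean, against 0.0951 with group alone. Macrophage markers lay between 6.99 and 7.18 in Control and between 7.41 and 7.86 in A-CRF, with no overlap. All 9 had a change above 0 and 7 passed, with a median of 0.44. With the macrophage mean as a covariate, the median change of the members was -0.0014 with 20 of 39 below 0, and 0 members and 0 of all probe sets passed the limma test (0 members and 1334 probe sets at an unadjusted p under 0.05). Because the groups do not overlap in the macrophage mean, group and macrophage signal cannot be told apart, and the members' median SE was 0.196 in that model against 0.0951. Both covariates were chosen after seeing the data.

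Fibroblast markers were higher on most A-CRF arrays, with a mean between 9.60 and 9.89 in A-CRF and between 9.39 and 9.62 in Control, and 5 of the 6 Control arrays lay below every A-CRF array. All 6 had a change above 0, with a median of 0.06, and 0 passed the limma test, with 1 at an unadjusted p under 0.05: the collagen gene Col1a1, at 0.67 (adjusted p = 0.14). Of the 6 endothelial markers, 4 had a change below 0 and 0 passed, with 1 at an unadjusted p under 0.05 (Vwf, at 0.40). Their mean lay between 6.59 and 6.85 in Control and between 6.65 and 6.91 in A-CRF. The part of either cell type in the members' values was not tested.

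Markers of other muscle were mostly dim. Of the cardiac markers 6 of 8, and of the skeletal muscle markers 5 of 8, were near the lowest signal in Control, and the cardiac mean lay between 5.59 and 5.78 in Control and between 5.66 and 5.74 in A-CRF. The muscle creatine kinase Ckm was the only one of them that passed (-0.41, limma adjusted p = 0.023). Clock genes split the A-CRF arrays. The clock score, the mean log2 signal of Dbp, Tef, Hlf, Nr1d1, Nr1d2, Per2, Per3 and Ciart (7 measured) minus that of Arntl (Bmal1), Npas2, Clock and Nfil3, which oscillate in opposite phase, lay between -0.76 and -0.17 on A-CRF 1 to 5 and between 1.01 and 1.11 on A-CRF 6 to 8, so the low arrays were the 4 with the lowest member means and A-CRF 1. In Control it lay between -0.08 and 1.14. The lowest Control scores, -0.08 on Control 1 and 0.41 on Control 6, went with the highest Control member means, 8.86 and 9.03. The other Control arrays had scores of 0.88 to 1.14 and member means of 8.57 to 8.70. Of the genes of the clock score, Npas2 passed as higher in A-CRF, with 0.78 (limma adjusted p = 0.041). With this score as a covariate the members' median was -0.21, 38 changes were below 0 and 0 passed, with adjusted p-values of 0.093 for Ndufs7 and 0.13 for Idh2. Over all 31042 probe sets, 180 passed with the clock score, against 636 with group alone. The part of sampling time in the result was not tested.

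Other genes of the same pathways were read from lists of their own. All 17 other measured complex I subunits had a change below 0, with a median of -0.16, and 8 had an unadjusted p under 0.05. Only 2 passed: Ndufa7 fell by 0.33 (SE 0.06; limma adjusted p = 0.014) and Ndufb10 by 0.19 (SE 0.05; limma adjusted p = 0.049). Ndufa6 did not pass, with -0.34 (limma adjusted p = 0.054). Its A-CRF arrays all lay below its Control arrays, as for 0.438% of all probe sets, but only just: 9.0465 against 9.0466. Ndufa7 passed in all 14 fits that left out 1 array, but not with the clock score (adjusted p = 0.058), the smooth muscle score (0.082) or the macrophage score (0.999). Ndufb10 lost its call in 23 of 32 alternatives. It passed only without A-CRF 6, A-CRF 7 or Control 2 among those 14 fits, with an adjusted p of up to 0.107 without Control 6, and in 6 of the 18 others. Of 6 other subunits of complexes III and IV, 5 had a change below 0, the median was -0.13 and 0 passed, with 3 at an unadjusted p under 0.05. All 16 measured ATP synthase genes had a change below 0, with a median of -0.18; 0 passed the limma test, and 13 had an unadjusted p under 0.05. Of 17 other citric acid cycle and pyruvate dehydrogenase genes, 15 had a change below 0, the median was -0.24 and 0 passed, with 8 at an unadjusted p under 0.05. Respiratory chain assembly factors had a median of -0.04, 20 of 29 below 0 and 0 past the test, with 3 at an unadjusted p under 0.05. Of these 29 genes 7 were near the lowest signal in Control, where changes may be compressed, against 0 of the 39 members.

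Of the 5 tissue forms of complex IV subunits, 3 had a change below 0 and 0 passed the limma test, with 1 at an unadjusted p under 0.05, and 4 were near the lowest signal. Cox8b, the form of muscle and brown fat, ranged from 6.28 to 8.63 in Control and from 5.33 to 8.36 in A-CRF, with a change of -0.81 ± 0.51 (SE; limma adjusted p = 0.54) that was -0.53 without Control 6. Cox6b2, the form of testis, was the one with an unadjusted p under 0.05 and lay above 0, at 0.08 (limma adjusted p = 0.30). Cox7a1, Cox6a2 and Cox4i2 were near the lowest signal too, with changes of -0.03, -0.0022 and 0.0042, and the values of Cox6a2 and Cox4i2 turned sign between settings. Regulators of mitochondrial biogenesis had a median change of -0.03, 12 of 17 below 0 and 0 past the test, with 1 at an unadjusted p under 0.05, and 4 of them were near the lowest signal in Control. Ppargc1a, a coactivator that raises mitochondrial gene expression, was near the lowest signal with 0.01 ± 0.04 (SE; limma adjusted p = 0.97). The mitochondrial DNA packaging factor Tfam had -0.10 ± 0.06 (SE; limma adjusted p = 0.49), the factor Nrf1 -0.04 (adjusted p = 0.51) and the receptor Esrra -0.04 (adjusted p = 0.89).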

How the data were processed

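Total RNA of 14 samples of thoracic aorta, 8 A-CRF and 6 Control, was labelled from oligo-dT primed cDNA and hybridised to a 1-colour Affymetrix rat array, per the labels' protocols. The authors deposited 1 value per probe set and array, used here as log2 values of probe set summaries, and the submitters' processing notes name PLIER without a version. The sources used here do not state the background correction, the normalization, any added offset or the log base. Base 2 was taken because values run from 4.82 to 12.64, and every log2 change depends on it, and an offset would compress changes of dim genes.

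Of 31099 probe sets, 57 control probe sets were left out. The platform annotation gave 1 symbol for 20826 of the 31042 tested, several for 436 and none for 9780, and 20758 symbols were looked up by Entrez identifier in RefSeq, where 0 changed. The fit was limma 3.58.1 (R 4.3.3; lmFit and eBayes, two-sided, 12 residual degrees of freedom) on all tested probe sets, with Benjamini-Hochberg adjustment over all of them and a threshold of 0.05. The scripts were tested on simulated data. The number of arrays limits the precision.

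The members and all gene lists were chosen with earlier results of these data known. Values by array were given for members past the threshold and, per group, the member with the largest rise and the one with the largest fall; no member rose, and Sdhc, Ndufb9, Myh11, Ckm and the other genes outside this rule were named after their values were seen. Outside the members, Adipoq, Ucp1, Cidea, Ppargc1a, Nrf1, Tfam, Esrra, Cox7a1, Cox8b, Cox6a2 and Cox4i2 were always named, with up to 3 genes past the threshold from each other pathway list. A marker score is the mean log2 value of a list's measured genes. Alternatives covered scale, normalization, filter, variance model, array quality, choice of probe set, marker scores as covariates and leaving out each array. Promoter windows came from RefSeq (GRCr8).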

Additional observations from a re-analysis of the deposited data

Results flagged for a closer look

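Among 90 sets of values of 1 gene in 1 group of arrays, 4 held an array that stood far from the others of its group. All 4 were in A-CRF, with A-CRF 1 as the high one. Chance marks about 1 in 20 independent sets, but these sets share arrays and their genes vary together, so that rate is no measure for them. Ndufa4 was at 10.25 on A-CRF 1 and between 9.60 and 9.90 on the other A-CRF arrays. The core protein Uqcrc1 was at 9.16 against 8.15 to 8.52, and the complex IV subunit Cox7b at 10.13 against 9.20 to 9.63. Idh3a, of the NAD-dependent isocitrate dehydrogenase, was at 7.51 against 6.57 to 7.0. The same array had the highest mean of brown adipocyte markers, 6.70, and the largest GAPDH 3' minus 5' difference, 1.90 log2 units, and the part of either was not tested.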

How the results depend on the processing

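No paired analysis was possible because the labels pair no A-CRF sample with a Control sample. The replicate numbers used here only count the arrays within a group. The count of members past the threshold, 2, was the same with an offset of 16, quantile normalization and median centring, and all 39 changes stayed below 0 under these 3. It was 5 with array weights and 4 with the GAPDH difference as a covariate, 0 with the white adipocyte score and with the clock score, and 0 to 7 when each array was left out in turn. Of the covariates added after seeing the data, Ucp1 left 1, smooth muscle 0 and macrophage 0. Over all 31042 probe sets, 1457 passed with array weights and 1041 with the GAPDH difference, against 636 in the main fit. The association with the white adipocyte score was found for 1 member when probe sets under the 40th percentile were left out, for 5 with array weights and for 0 to 9 with single arrays left out, and that with the brown adipocyte score for 16 to 25 with single arrays left out.

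With the macrophage score, whose values do not overlap between the groups, 20 changes were below 0 and the median change was -0.0014 for all members, -0.040 for complex I, 0.058 for complex II, -0.020 for complex III, 0.049 for complex IV and -0.083 for the citric acid cycle. The citric acid cycle median, -0.31 with group alone, was -0.19 with the smooth muscle score. The members whose sign turned with the macrophage score were Ndufa4 0.080, Ndufb5 0.16, Ndufb8 0.0042, Ndufs1 0.15, Ndufs4 0.071, Ndufs6 0.062, Sdha 0.039, Sdhb 0.0020, Sdhc 0.078, Sdhd 0.22, Uqcrc2 0.15, Uqcrfs1 0.045, Cyc1 0.029, Cox4i1 0.031, Cox5a 0.23, Cox6c 0.18, Cox7b 0.067, Idh3a 0.048 and Sucla2 0.26. Outside the members, the genes whose sign turned with the macrophage score were Cox4i2 -0.054, Cox8b 0.98, Ppargc1a -0.12, Tfam 0.027, Adipoq 0.15 and Ucp1 1.74.

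The near-zero change of Sdhc was 0.019 without the 3 arrays of largest GAPDH difference, 0.013 with the white, 0.038 with the brown, 0.0017 with the clock and 0.022 with the smooth muscle score, 0.042 with Ucp1, and -0.069 to 0.016 with single arrays left out. Cox4i2 was -0.0082 with array weights, -0.014 without the 3 arrays, -0.00062 with the GAPDH difference, -0.0078 with the white and -0.023 with the clock score, and -0.0086 to 0.017 with single arrays left out. Cox6a2 was 0.0042 with array weights, 0.015 without the 3 arrays, 0.0086 with the skeletal and 0.046 with the smooth muscle score, and -0.015 to 0.021 with single arrays left out. Ppargc1a was -0.0022 with array weights, -0.023 as the mean of its probe sets, -0.0075 with the brown, -0.0046 with the clock and -0.00079 with the smooth muscle score, -0.014 with Ucp1, and -0.0095 to 0.027 with single arrays left out. Esrra was 0.021 with the brown and 0.073 with the smooth muscle score, 0.014 with Ucp1, and -0.084 to 0.0094 with single arrays left out. Adipoq was 0.014 with the clock score. The cause was not tested for any of these. The number of arrays, and for 4 of the 5 tissue forms of complex IV the signal close to the lowest value, limit what can be told apart.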

Other observations

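Further genes of mitochondrial energy supply, picked after their values were seen, had changes as large as those of the members without passing the test. Mpc1, a subunit of the carrier that brings pyruvate into mitochondria, had -0.55 ± 0.16 (SE; limma adjusted p = 0.089). Suclg1, the partner subunit of Sucla2 in succinyl-CoA ligase, had -0.35 ± 0.09 (SE; limma adjusted p = 0.074). Atp5f1b, the catalytic beta subunit of ATP synthase, had -0.28 ± 0.07 (SE; limma adjusted p = 0.060). Cox17, a copper chaperone for complex IV, had -0.28 ± 0.07 (SE; limma adjusted p = 0.053), the largest difference among the 29 measured assembly factors.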
